A study of Mus musculus with 14 samples.

Results

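Nes-GFP high cells of normal mouse bone marrow were set against Nes-GFP low cells of the same tissue, taking the 2 libraries labelled Nestin high and the 6 labelled Nestin low among the 14 libraries of the series. Of 27099 gene symbols in the count table, 16573 had at least 10 counts in 2 or more of these 8 libraries and were tested. The study sequenced polyA RNA of freshly isolated bone marrow stromal cells from normal mice and from mice with doxycycline-induced iMLL-AF9 acute myeloid leukaemia (AML), which gave 2 further Nes-GFP high and 4 further Nes-GFP low libraries. Cells were released by crushing bones in collagenase and sorted as GFP+ CD45- CD31- DAPI-, that is, as living cells outside the blood and endothelial gates, and the study's methods add a Ter119- gate, which removes erythroid cells. High and low cells of normal mice differed by GFP brightness alone within this gate, and per the study's methods normal mice drank sucrose water without doxycycline. GFP is driven by regulatory elements of the Nes gene and so reports on them rather than on the protein. Some libraries came from 1 mouse and others from a pool of 2 mice, with no label saying which, and age and sex per library are not given in the labels.

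Nestin is an intermediate filament protein. In bone marrow its reporter marks perivascular stromal cells, in which a bright fraction has been linked to arterioles and a dim fraction to sinusoids, and which supply niche factors such as Cxcl12 and Kitl to haematopoietic stem cells. Pericytes wrap small vessels and carry Rgs5, Abcc9, Kcnj8 and Higd1b, and smooth muscle cells carry contractile genes such as Acta2.

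The 8 libraries held between 8213690 and 11436652 counts. The 2 Nes-GFP high libraries were unlike each other. Replicate 1 detected 14842 genes and replicate 2 detected 18487, against 19045 to 20197 in the low libraries. The number of genes detected gave an exact two-sided permutation p of 0.0714, which is the smallest that 2 against 6 libraries allow. Spearman's correlation over the tested genes, which are not independent replicates, was 0.56 between the 2 high libraries and 0.63 to 0.84 among the low ones. With the low libraries it was 0.58 to 0.64 for high replicate 1 and 0.60 to 0.71 for high replicate 2. Each high library was thus closer to every low library than to the other high one. Results that rest on the 2 high libraries are therefore given for each of them.

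Nes was measured first, as a check of the sort. Its level was 2.19 CPM (counts scaled to a common library total) in high replicate 1 and 29.4 CPM in high replicate 2, against a lowest, median and highest value of 0, 0.451 and 1.16 CPM in the low libraries. Both high libraries lay above all 6 low ones, but replicate 1 stood only just above the highest of them. The log2 fold change was 5.13 ± 1.46 (SE), with an adjusted p of 0.273 (edgeR quasi-likelihood test, Benjamini-Hochberg over all genes tested), and the exact two-sided permutation p was 0.0714. It was 6.04 without replicate 1 and 2.06 without replicate 2. In the AML mice, Nes stood at 28.3 and 24.6 CPM in the high libraries and at 0 to 6.31 CPM in the low ones, so 3 of the 4 high libraries of the series had similar levels and normal replicate 1 stood apart. In bulk RNA, fewer cells of a type and less RNA per cell cannot be told apart.

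Both high libraries lay above all 6 low ones for 5 of 19 tested pericyte and smooth muscle genes, beside 2.47% of all genes tested, and none of the 19 passed the adjusted threshold. Rgs5, a regulator of G-protein signalling in pericytes, was at 112 and 922 CPM in the high libraries and at 4.31, 15.2 and 59.6 CPM (lowest, median, highest) in the low ones. Its log2 fold change was 4.79 ± 1.20 (SE; adjusted p = 0.229 in edgeR), and 2.37 without replicate 2. Higd1b, a mitochondrial protein gene and pericyte marker, was at 6.33 and 79.7 CPM against 0 to 0.404 CPM, a log2 fold change of 8.22 ± 1.78 (SE; adjusted p = 0.229 in edgeR) that was 5.23 without replicate 2. In both genes the low libraries stayed below each high library, and replicate 2 was by far the higher.

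Abcc9, the sulfonylurea receptor subunit of the pericyte potassium channel, was at 44.0 and 313 CPM in the high libraries. The low libraries reached 2.12, 12.6 and 33.4 CPM (lowest, median, highest), so the groups did not overlap, with a log2 fold change of 3.85 ± 1.34 (SE; adjusted p = 0.342 in edgeR) that was 1.61 without replicate 2. Kcnj8, which encodes the pore of the same channel, was at 0.243 and 27.5 CPM against 0.175 to 9.89 CPM, so that only replicate 2 exceeded the low range. Acta2, smooth muscle actin, was at 64.8 and 45.2 CPM against 5.26, 18.0 and 29.1 CPM, with a log2 fold change of 1.87 ± 0.83 (SE; adjusted p = 0.412 in edgeR), and here replicate 1 was the higher of the pair.

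Other pericyte and smooth muscle genes overlapped between the groups. Pdgfrb, the receptor that recruits pericytes, was at 0.852 CPM in high replicate 1 and at 860 CPM in replicate 2, against 20.8 to 1032 CPM in the low libraries. Notch3, a receptor of mural cells, was at 4.26 and 307 CPM against 7.75 to 116 CPM. Cspg4, the NG2 proteoglycan, was at 6.82 and 14 CPM against 8.97 to 82.8 CPM. Replicate 1 thus held Rgs5, Abcc9 and Acta2 above the low libraries while Pdgfrb, Notch3 and Cspg4 were below all of them.

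**Figure D1:**
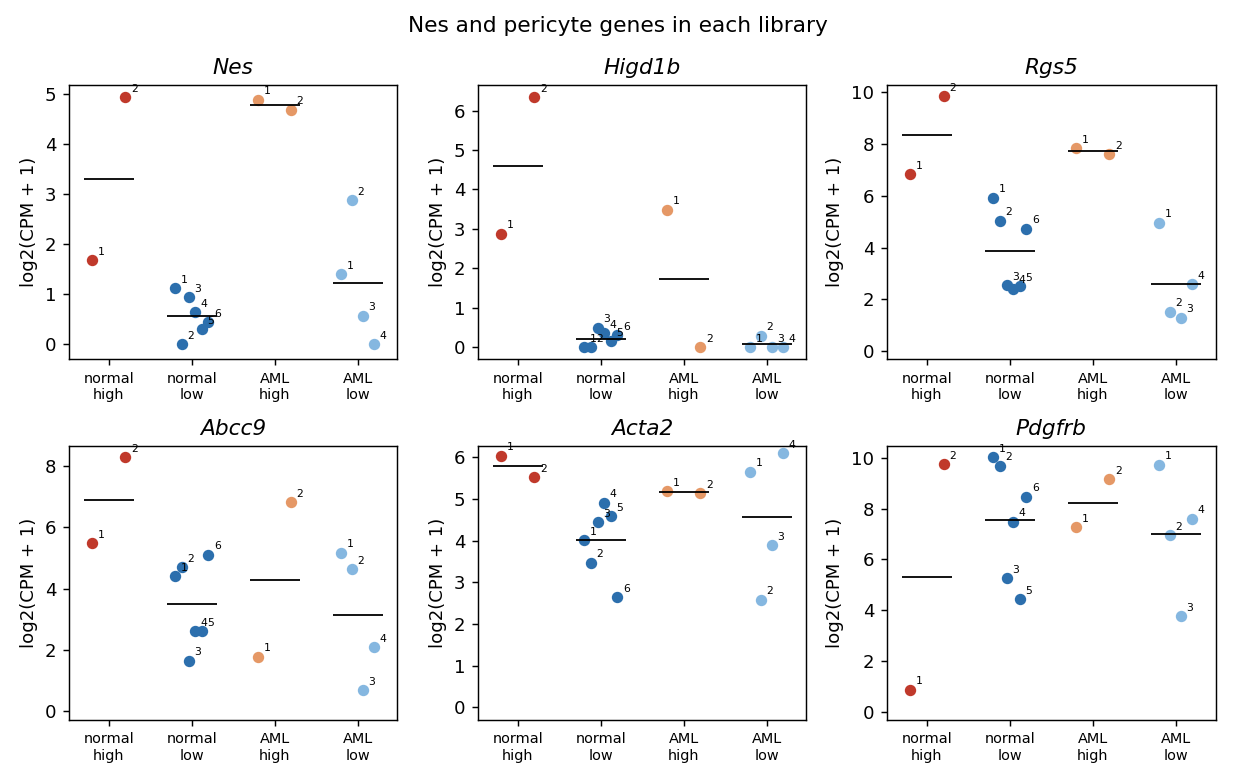
Level of Nes and 5 pericyte genes, as log2(CPM + 1), in each library of the 4 groups; points carry the replicate number and lines are group means. Both normal Nes-GFP high libraries lie above the 6 low ones for Nes, Higd1b, Rgs5, Abcc9 and Acta2, whereas Pdgfrb spans 0.852 to 860 CPM between the 2 high libraries.

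Of the 24 genes listed for pericytes and smooth muscle, 19 were tested, and 18 of these had a log2 fold change above 0, beside 43.4% of all genes tested. Their median was 1.17, against -0.20 over all genes. No member passed the adjusted threshold. The 5 that lay above all low libraries were Nes, Rgs5, Acta2, Abcc9 and Higd1b, and 0 lay below all of them, beside 10% of all genes. The median was 1.72 without replicate 1 and -0.10 without replicate 2, so its sign rested on replicate 2. The median of all genes in these 2 fits was -0.54 and -0.81, below that of the list in each. The listed genes summed to 743 CPM in high replicate 1 and 4628 CPM in replicate 2. In the low libraries the lowest, median and highest sums were 385, 916 and 2612 CPM, so replicate 1 lay within their range. Myh11, Cnn1, Lmod1, Actg2 and Casq2, which mark contractile muscle, fell below the count filter, each reaching 10 counts in fewer than 2 of the 8 libraries.

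The upstream sequences of 4 genes of this list and of Alms1, the gene with the smallest p among those above, are shown so that the regions before their starts can be compared. Each is the 250 bases before the RefSeq start of the gene on GRCm38.p6, written along the gene's strand, with capitals marking matches on either strand. The motifs were the GC box written GGGCGG, the CCAAT box, the core TGGGAA bound by the Notch effector Rbpj, and the letters CATTCC to which TEAD factors bind. The TATA box written TATAAA and the CArG box, a serum response factor motif, were searched too. The CArG box was taken strictly as CCWWWWWWGG, where W is A or T.
Nes (chr3:87970843-87971092, plus strand): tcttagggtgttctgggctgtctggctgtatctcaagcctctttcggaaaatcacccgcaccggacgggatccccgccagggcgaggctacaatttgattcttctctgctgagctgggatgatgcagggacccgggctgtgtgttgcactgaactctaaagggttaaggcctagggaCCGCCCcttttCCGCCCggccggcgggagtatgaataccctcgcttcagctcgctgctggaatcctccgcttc
Rgs5 (chr1:169655251-169655500, plus strand): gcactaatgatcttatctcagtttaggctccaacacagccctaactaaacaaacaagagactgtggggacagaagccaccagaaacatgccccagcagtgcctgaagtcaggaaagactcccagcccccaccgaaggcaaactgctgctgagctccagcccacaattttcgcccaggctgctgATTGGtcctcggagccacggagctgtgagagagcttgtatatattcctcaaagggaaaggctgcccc
Abcc9 (chr6:142702275-142702524, minus strand): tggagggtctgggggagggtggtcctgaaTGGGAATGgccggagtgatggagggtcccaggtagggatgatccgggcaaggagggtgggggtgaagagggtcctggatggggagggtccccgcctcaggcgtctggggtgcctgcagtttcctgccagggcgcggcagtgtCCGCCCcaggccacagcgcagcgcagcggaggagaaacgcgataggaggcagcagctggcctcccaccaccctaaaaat
Acta2 (chr19:34255374-34255623, minus strand): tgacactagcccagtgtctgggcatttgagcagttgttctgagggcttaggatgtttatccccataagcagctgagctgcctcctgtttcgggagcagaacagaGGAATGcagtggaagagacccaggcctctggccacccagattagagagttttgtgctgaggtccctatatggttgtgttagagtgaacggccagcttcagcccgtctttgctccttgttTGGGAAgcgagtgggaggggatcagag
Alms1 (chr6:85587281-85587530, plus strand): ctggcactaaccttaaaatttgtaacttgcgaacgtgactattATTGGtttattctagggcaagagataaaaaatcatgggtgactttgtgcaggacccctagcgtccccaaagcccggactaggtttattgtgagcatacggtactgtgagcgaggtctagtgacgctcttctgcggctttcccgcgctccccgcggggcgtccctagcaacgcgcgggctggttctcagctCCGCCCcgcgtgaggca
Nes held 2 GC boxes, which 32.7% of the 32851 windows of this length hold at least once, and Rgs5 held a CCAAT box, found in 33.8% of them. The Abcc9 window held a GC box and an overlapping pair of the Rbpj core and the TEAD letters, found in 21.6% and 12.6% of windows. Acta2 held the Rbpj core and the TEAD letters apart, and Alms1 a CCAAT box and a GC box. Neither the TATA box (12.4% of windows) nor the strict CArG box (1.47%) was matched in these 5. Near matches to the CArG box, such as CCCTATATGG and CCTTGTTTGG in the Acta2 window, were not counted. No window for Higd1b was used here.

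Across the genome, no gene passed an adjusted p of 0.05 in edgeR, in either direction. Before adjustment, p was below 0.05 for 309 genes (1.86%) that were higher and for 1647 (9.94%) that were lower in the high cells, and the smallest adjusted p was 0.223. DESeq2 called 74 genes higher (0.447%) and 1639 lower (9.89%), and limma voom called 0 in either direction, where 261 and 624 genes had p below 0.05 before adjustment. In counts simulated from these libraries, edgeR called 16 of 67 genes given a 16-fold change and 33 of 66 given a 64-fold change. In that simulation DESeq2 called 47 and 58 of the same genes. Of 15800 genes that had been left unchanged, DESeq2 called 200 and edgeR called 1. Whether any simulated library detected as few genes as high replicate 1 was not tested. These calls therefore do not rank edgeR and DESeq2 on the measured libraries.

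Both high libraries lay above all 6 low libraries for 409 genes (2.47%) and below all 6 for 1664 (10%). After scaling by TMM (edgeR's normalization) the counts were 614 above and 1388 below, and after DESeq2's size factors 705 and 1347. The excess of lower genes thus held in each scaling, with a smaller margin in the last 2.

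Taken alone, replicate 1 was above all low libraries for 1789 genes and below all of them for 5235, and replicate 2 for 2716 and 3982. The 1664 shared lower genes were 31.8% of those of replicate 1 and 41.8% of those of replicate 2, where 24% and 31.6% of all tested genes were below the low range in the other library. The 409 shared higher genes were 22.9% and 15.1% of the 2 lists, beside 16.4% and 10.8% of all tested genes.

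**Figure D2:**
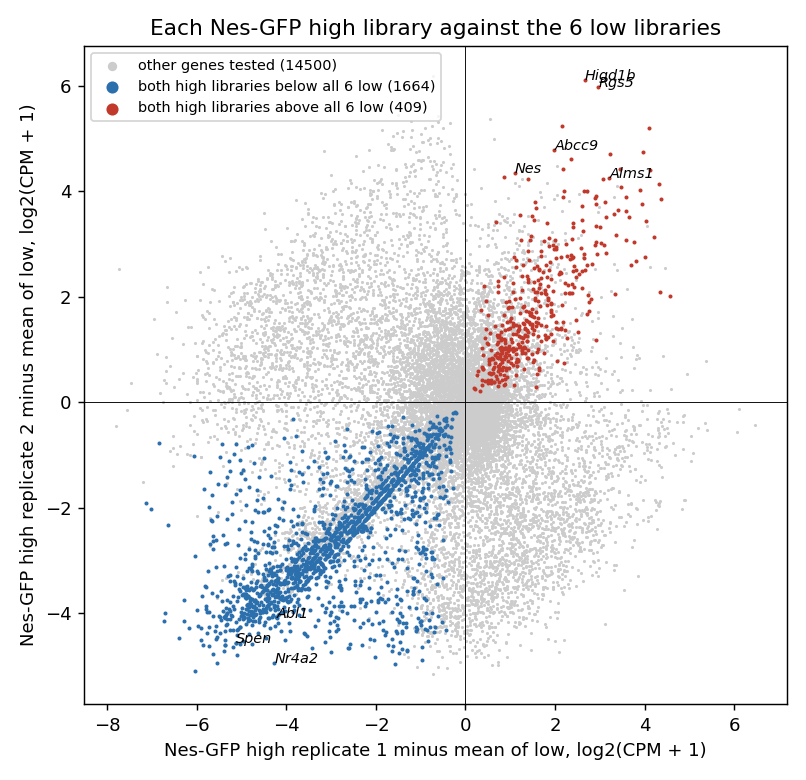
Difference of each Nes-GFP high library from the mean of the 6 low libraries, in log2(CPM + 1), with replicate 1 on the horizontal and replicate 2 on the vertical axis; each point is a gene tested. The 409 genes above all low libraries lie upper right, the 1664 below all of them lie lower left, and many of the other 14500 genes moved opposite ways in the 2 libraries.

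Genes with no count were unevenly spread. Among 6333 genes whose mean over the low libraries was 10 to 50 CPM, high replicate 1 had no count for 23.1%, high replicate 2 for 0.616%, and each low library for at most 0.426%. The 2 AML high libraries had none for 3.74% and 2.70%. Replicate 1 stood apart in this from all 13 other libraries, and its total of 8213690 counts was close to that of replicate 2. The part of such missing counts in the excess of lower genes was not tested. Of the genes at 10 to 50 CPM, 14% were below all low libraries in both high ones, against 3.04% of the 756 genes at 200 CPM and over. The share was 7.58% at 1 to 10 CPM, where replicate 1 had the most genes with no count, and 9.64% at 50 to 200 CPM. A gene with no count in any low library could not lie below all of them. At 1 to 10 CPM each low library had no count for 4.89% to 12.3% of genes, which limited the share that could be reached there.

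**Figure D3:**
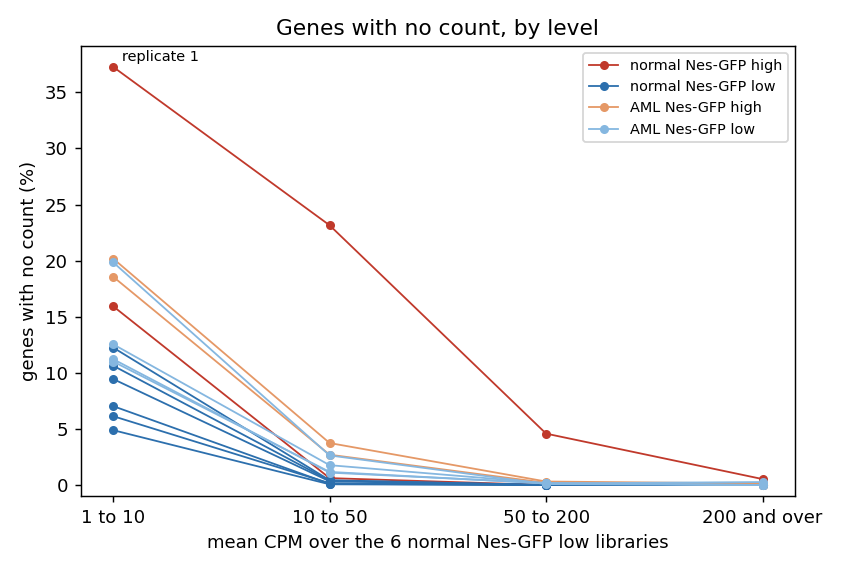
Percentage of tested genes with no count in each library, by the mean CPM over the normal Nes-GFP low libraries; each line is a library. Normal high replicate 1 has no count for 37.3% of genes at 1 to 10 CPM and 23.1% at 10 to 50 CPM, and replicate 2 for 15.9% and 0.616%.

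The 1664 lower genes had a median level of 23.1 CPM in the low libraries, beside 19.6 CPM over all tested genes, and 0.581 CPM in the high ones. Their median exon length was 4529 bases, against 3625 over all tested genes and 3454 for the 409 higher genes. Protein-coding genes made up 88.3% of the lower, 84.4% of the higher and 78.3% of all tested genes. For 710 genes, with a median of 1.99 CPM in the low libraries, neither high library had a count.

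The AML libraries, which took no part in choosing these genes, gave the same direction for a minority. Both AML high libraries lay below all 4 AML low ones for 288 of the 1664 lower genes (17.3%), beside 12% of all tested genes. They lay above all of them for 72 of the 1664, beside 4.62% of all tested genes. For the 409 higher genes the same direction held for 33 (8.07%), beside 4.62%. The opposite direction held for 19 of the 409, beside 12%. The difference between the high-low effects of normal and AML mice, tested as an interaction, passed the adjusted threshold for 0 genes in edgeR (with 577, or 3.48%, above and 1065, or 6.43%, below 0 at an unadjusted p below 0.05) and for 762 in DESeq2 (1.6% above and 3.0% below).

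Among genes with at least 10 CPM on average in the higher group, the 12 with the smallest p above the low libraries were Alms1, Higd1b, Uckl1, Plpp5, Rgs5, Cndp1, Kmt2d, Zfp626, Golt1b, Stx5a, Igbp1 and Nes. Their log2 fold changes ran from 1.45 to 8.22 and their adjusted p from 0.223 to 0.273 in edgeR. Alms1, a centrosome and basal body protein, was at 20.0 and 42.1 CPM in the high libraries against 0.551, 1.04 and 4.09 CPM (lowest, median, highest) in the low ones. Its log2 fold change was 4.71 ± 0.86 (SE; adjusted p = 0.223 in edgeR), and it was 5.23 without replicate 1 and 3.91 without replicate 2. In the AML mice, Alms1 was at 0.759 and 0.676 CPM in the high libraries and 0.580 to 3.10 CPM in the low ones, with an interaction of 5.51 on the log2 scale (adjusted p = 0.310 in edgeR).

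Several of the 12 were close in the 2 high libraries. Stx5a, a syntaxin of traffic between the endoplasmic reticulum and the Golgi, was at 241 and 229 CPM against 78.2 to 126 CPM. Golt1b, also of Golgi transport, was at 135 and 232 CPM against 57.6 to 75.9 CPM. Both genes of the secretory route thus stood above the narrow range of the low libraries. Kmt2d, a histone H3 lysine methyltransferase, was at 89.7 and 134 CPM against at most 38.2 CPM. Igbp1, which binds the catalytic subunit of protein phosphatase 2A, was at 111 and 89.0 CPM against 3.76 to 40.8 CPM. Plpp5, a lipid phosphatase, was at 163 and 200 CPM against 29.0 to 88.9 CPM. Of the 12, Rgs5 and Nes were the 2 for which both AML high libraries also lay above all AML low ones. Over all genes tested, 4.62% did so.

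The 12 leading genes below the low libraries were Acads, Atpaf2, Tnpo3, Spen, Bre, Fundc1, Wnk1, Gna13, Guf1, Fam76b, Clp1 and Abl1. They were at 0 to 2.43 CPM in the high libraries and at 8.78 to 156 CPM in the low ones. Their log2 fold changes ran from -6.91 to -4.77, each with an adjusted p of 0.223 in edgeR. DESeq2 called all 12 with the full set, beside 9.89% of all genes tested that it called lower. The 12 were chosen by p in these same libraries, so these calls are no separate evidence.

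Mitochondrial roles recurred among them. Acads, the short-chain acyl-CoA dehydrogenase of fatty acid oxidation, was at 0.243 and 0.925 CPM against 13.6, 32.3 and 46.6 CPM (lowest, median, highest). Atpaf2, an assembly factor of the F1 ATP synthase, was at 1.22 and 2.08 CPM against 19.2, 47.4 and 128 CPM. Fundc1, a mitophagy receptor, was at 0.122 and 1.16 CPM against 23.7, 34.7 and 50.3 CPM. No mitochondrial theme was tested, and the share of such genes among all tested genes was not counted.

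Signalling genes were also in this set. Gna13, a G-protein alpha subunit, was at 0.487 and 2.31 CPM against 31.0, 55.3 and 75.8 CPM. Abl1, a tyrosine kinase, was at 0.243 and 0.347 CPM against 8.78, 22.3 and 50.7 CPM. In the AML mice both were low in the high libraries as well, Gna13 at 3.58 and 1.35 CPM against 44.8 to 131 CPM and Abl1 at 0.867 and 0.580 CPM against 11.8 to 68.9 CPM. Bre, of a BRCA1-linked deubiquitinase complex, was the other gene of the 12 whose AML libraries separated in this direction. Thus 3 of the 12 did so, beside 12% of all genes tested. Spen, a transcriptional corepressor, was at 0 and 0.463 CPM in the normal high libraries against 15.5 to 49.5 CPM, but at 19.0 and 42.8 CPM in the AML high ones.

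**Figure D4:**
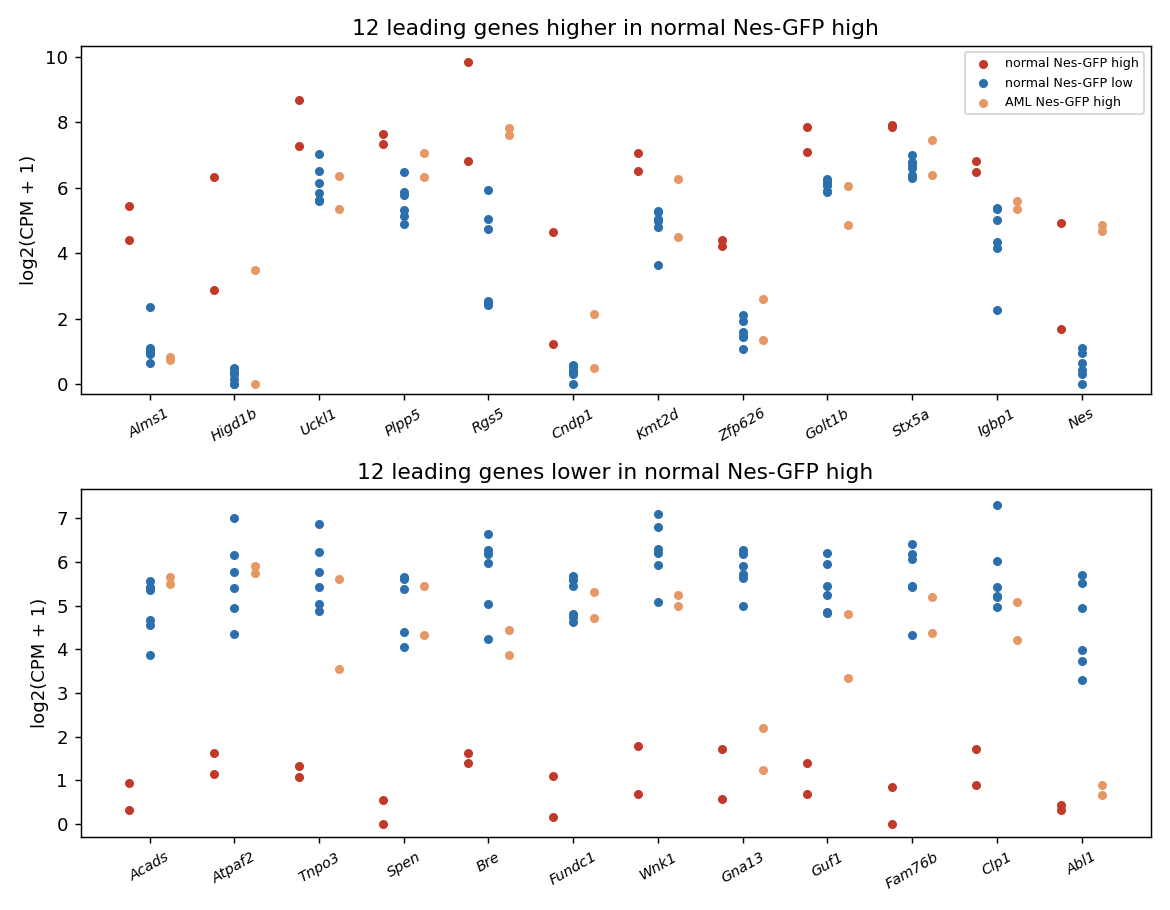
Levels, as log2(CPM + 1), of the 12 leading genes in each direction; each point is a library of the normal high, normal low or AML high group. The lower genes sit at 0 to 2.43 CPM in both normal high libraries, and the AML high libraries reach 59.1 CPM.

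Osteolineage genes were high in replicate 1. Their summed level was 98402 CPM in high replicate 1 and 20707 CPM in replicate 2, against 4459 to 36196 CPM in the low libraries. Of 21 tested, 18 had a log2 fold change above 0 and the median was 1.20, but 0.38 without replicate 1. Col1a1, the main collagen of bone, was at 50119 and 5239 CPM against 1222 to 19248 CPM. Ifitm5, which marks mineralizing osteoblasts, was at 575 and 22.8 CPM against 1.11 to 66.2 CPM, with a log2 fold change of 3.52 ± 1.47 (SE; adjusted p = 0.396 in edgeR) that rested on replicate 1 and was 0.04 without it. Dlx5, an osteoblast transcription factor, was at 77.7 and 71.6 CPM against 7.13 to 68.3 CPM, and with Tnfrsf11b was 1 of 2 members of the 21 above all low libraries, beside 2.47% of all genes.

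Genes of Lepr+ and adipocyte-lineage stroma followed replicate 2. Lepr, the leptin receptor, was at 225 and 1132 CPM in the high libraries and at 82.3, 321 and 1864 CPM (lowest, median, highest) in the low ones. The median log2 fold change of 20 tested members was 0.15, and it was 0.90 without replicate 1 and -1.80 without replicate 2. Among 20 niche factors the median was 0.48 (1.12 without replicate 1 and -1.56 without replicate 2). In both high libraries, 0 of them lay above the low range and 0 below, beside 2.47% and 10% of all genes. Cxcl12, the chemokine that retains stem cells, was at 6459 and 34763 CPM against 2393 to 38243 CPM. Kitl, the stem cell factor, was at 78.8 and 598 CPM against 42.5 to 738 CPM. The low libraries themselves spanned the whole range of these 3 genes, with replicates 1 and 2 the highest.

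Fabp4, a fatty acid carrier of adipocytes and endothelium, was at 1.70 and 49.6 CPM against at most 5.6 CPM, so only replicate 2 was above the low range. Of 13 IGF system genes, 12 were tested and 11 had a log2 fold change above 0 (median 0.81, and -0.38 without replicate 2). Without replicate 2 the median of all genes was -0.81. Among 46 matrix genes the median was 0.30 (0.73 without replicate 1 and -1.05 without replicate 2). Of these, 4 were above all low libraries (Vtn, Timp1, Col5a1 and Pcolce), beside 2.47% of all genes, and 1 was below (Aebp1), beside 10%. The median of 30 TGF-beta and BMP genes was 0.28 (-1.43 without replicate 2). Bmp5 was the 1 member outside the low range in both high libraries, and it was below, beside 10% of all genes.

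Of 19 cartilage genes tested, 16 had a log2 fold change below 0, and none passed the adjusted threshold. The median was -0.81 (-0.66 without replicate 1 and -1.48 without replicate 2). Sox9, the transcription factor of chondrocytes, was at 50.9 and 125 CPM against 221, 266 and 546 CPM, a log2 fold change of -1.54 ± 0.79 (SE; adjusted p = 0.454 in edgeR), which was -0.97 without replicate 1 and -2.51 without replicate 2. Chad, a cartilage matrix protein, was at 796 and 455 CPM against 873 to 3804 CPM. Col2a1, the cartilage collagen, was at 3551 and 6997 CPM against 3830 to 20761 CPM. With Col10a1, 3 members were below all low libraries, beside 10% of all genes tested.

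All 32 cell cycle genes were tested and had a log2 fold change below 0, and none passed the adjusted threshold. The median was -1.91 (-4.54 without replicate 1, -1.22 without replicate 2). Their sum was 1290 and 389 CPM in the high libraries, and 462 to 7149 CPM in the low ones, so the sums overlapped. Aurkb, Tpx2, Mcm4 and Hmmr were below all low libraries, 4 of 32, beside 10% of all genes tested. Mcm4, a subunit of the replicative helicase, was at 4.75 and 19.0 CPM against 50.6, 109 and 247 CPM, a log2 fold change of -3.04 ± 0.87 (SE; adjusted p = 0.276 in edgeR). Mki67, the proliferation marker, was at 92.0 and 6.25 CPM against 4.63 to 349 CPM. The low libraries with the highest cell cycle sums, replicates 5 and 6, also had the highest erythroid and ribosomal protein sums.

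Markers of blood cells, which red cell lysis and the CD45 and Ter119 gates should deplete, varied between libraries of both groups. The neutrophil and granule list summed to 38999 and 2114 CPM in the high libraries, and to 1332 to 117980 CPM in the low ones, with replicates 3 and 4 the highest. S100a8, a neutrophil calcium-binding protein, was at 10084 and 268 CPM against 172 to 27148 CPM. Ptprc, which encodes CD45, was at 106 and 5.09 CPM against 4.34 to 483 CPM. Of 25 tested, 22 had a log2 fold change below 0 and the median was -0.81, but it was -4.34 without replicate 1 and 0.12 without replicate 2. The part of these cells in the results was not tested.

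The erythroid list summed to 3222 and 166 CPM in the high libraries against 592 to 11747 CPM. Its median log2 fold change was -1.99 over 21 tested genes (-4.87 without replicate 1 and -1.08 without replicate 2). Of the 21, 4 were below all low libraries, Epor, Sptb and Epb42 among them, beside 10% of all genes. Among 15 monocyte and macrophage genes the median was -0.94 (-3.82 without replicate 1 and -2.22 without replicate 2), with 2 below all low libraries, Cd68 and Fcgr1. Cd68, a lysosomal protein of macrophages, was at 0 and 1.39 CPM against 1.64 to 136 CPM. Among 13 tested lymphocyte genes the median was -2.44 (-4.56 without replicate 1 and -1.55 without replicate 2), with 2 below all low libraries, Cd3d and Nkg7. Both counts of 2 stand beside the 10% of all genes below the low range.

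Of 14 megakaryocyte and platelet genes, 8 were tested, with a median of -5.45, or -3.82 with genes that had no count in the high libraries set at 3 counts per library. Itga2b, the platelet integrin CD41, had no count in either high library and 0.193 to 33.7 CPM in the low ones. The mean of the low libraries was 22.2-fold above a floor of 3 counts per high library. That mean was raised by the 1 low library at 33.7 CPM, and the lowest low library was itself below the floor of 0.356 CPM. In the AML mice Itga2b ran the other way, at 4.34 and 18.2 CPM in the high libraries against 0.356 to 1.26 CPM in the low ones. The interaction for Itga2b had an adjusted p of 0.284 in edgeR.

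Endothelial genes, which the CD31 gate should deplete, were sparse. Of 30 listed, 15 were tested, with a median log2 fold change of -1.06 (-0.71 with genes at 0 set at 3 counts), and it was -3.13 without replicate 1 and -4.12 without replicate 2. Emcn, Tie1 and Flt1 were below the filter. Pecam1, which encodes CD31, was at 45.9 and 1.16 CPM in the high libraries against 0.175 to 31.0 CPM. The sum was 334 and 501 CPM in the high libraries and 272 to 865 CPM in the low ones. Glial genes were sparse too, with Sox10 below the filter and a median of 0.51 over 10 tested (-0.57 without replicate 1). Of the 10, 7 had a log2 fold change above 0. Prx and Ncam1, 2 of the 10, were above all low libraries, beside 2.47% of all genes, and 0 were below, beside 10%. Mbp, a myelin protein that blood cells also transcribe, was at 0.852 and 1.04 CPM against 0.874, 39.8 and 62.0 CPM, a log2 fold change of -5.01 ± 1.39 (SE; adjusted p = 0.256 in edgeR).

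**Figure D5:**
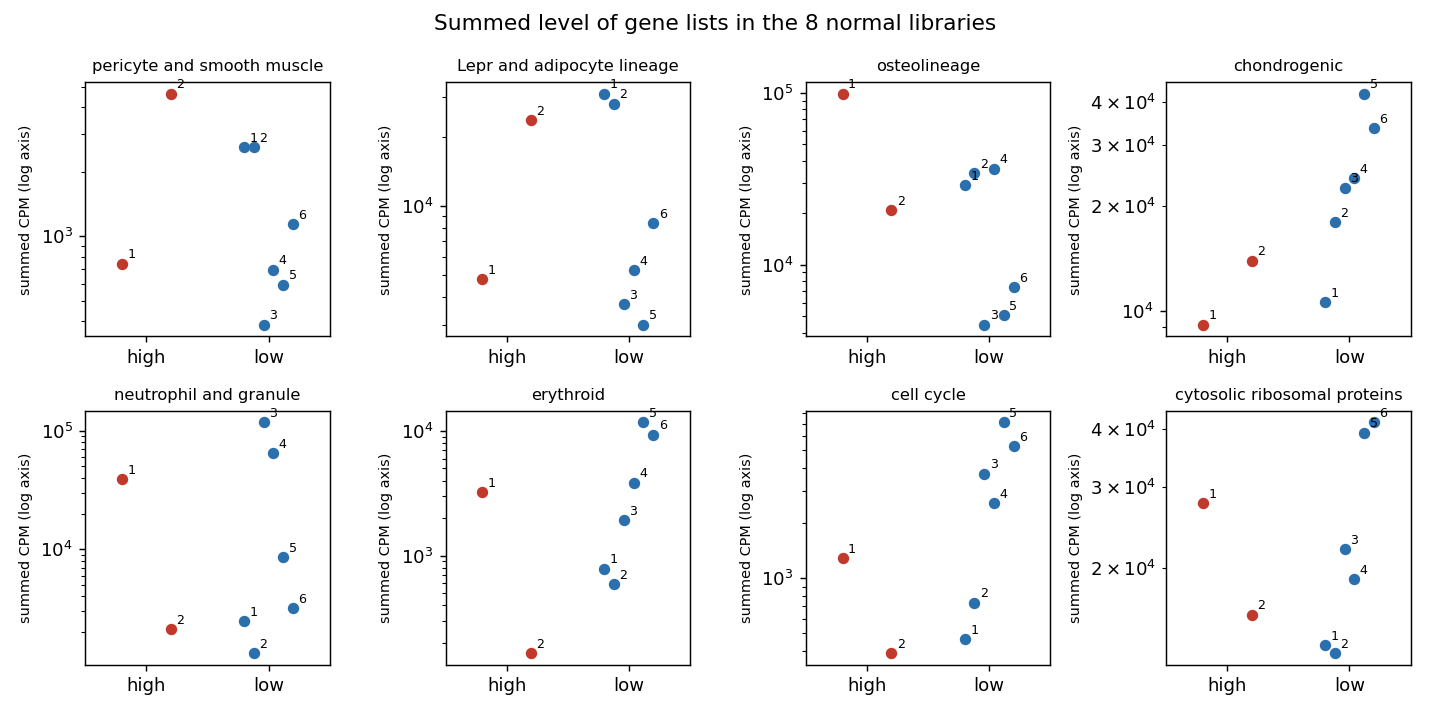
Summed CPM, on a log axis, of 8 gene lists in the normal Nes-GFP high and low libraries; points carry the replicate number. High replicate 1 has the largest osteolineage sum (98402 CPM). High replicate 2 has the largest pericyte sum (4628 CPM), while replicate 1, at 743 CPM, lies within the low range. The low libraries span 1332 to 117980 CPM for neutrophil genes.

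The median of 34 interferon response genes was 0.08, and it was 0.74 without replicate 1 and -1.06 without replicate 2. Of the 34, 6 were below all low libraries, beside 10% of all genes, and 0 were above, beside 2.47%. Oas1a, which senses double-stranded RNA, was at 0.243 and 0.810 CPM against 10.8, 15.5 and 35.8 CPM, a log2 fold change of -4.84 ± 1.21 (SE; adjusted p = 0.229 in edgeR). Usp18, which removes ISG15 from proteins, was at 0 and 0.116 CPM against 2.57 to 27.1 CPM. Stat2, a transducer of type I interferon, was at 2.92 and 2.20 CPM against 10.2 to 141 CPM. Ifi44 and Irf9 were also below the low range.

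Among 30 immediate early genes, which respond within minutes to handling and growth factors, the median was -0.48 (-1.17 without replicate 1 and -0.27 without replicate 2). Nr4a2, an orphan nuclear receptor, was at 0.974 and 0.231 CPM against 10.2, 43.6 and 114 CPM. Its log2 fold change was -6.11 ± 1.36 (SE), with an adjusted p of 0.229 in edgeR. It was the 1 member of the 30 below all low libraries, beside 10% of all genes. Of 11 tested Notch pathway genes, 10 had a log2 fold change below 0, with a median of -1.73 (-2.80 without replicate 1 and -6.36 without replicate 2). Lfng, a glycosyltransferase that modifies Notch receptors, was at 0 and 0.694 CPM against at most 67.9 CPM with a median of 20.7 CPM, a log2 fold change of -6.00 ± 1.72 (SE; adjusted p = 0.275 in edgeR).

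In the lists of general metabolism no gene passed the adjusted threshold. The median log2 fold change was 0.15 for 74 nuclear subunits of oxidative phosphorylation. Of these, 1 was above all low libraries, beside 2.47% of all genes, and 2 were below, beside 10%. For 79 cytosolic ribosomal proteins it was 0.03, for 28 glutathione and antioxidant genes -0.19, for 20 housekeeping genes -0.17, and for 13 proteins of mitochondrial DNA 0.28. For 19 glycolysis genes it was -0.33, and 4 of them were lower with p below 0.05 before adjustment, beside 9.94% of all genes. Scaling by library totals moved the median of all genes from -0.20 to -0.43, and with it the medians of the oxidative phosphorylation, ribosomal protein and interferon lists to -0.09, -0.20 and -0.12, below 0.

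Among 15 antigen presentation genes the median was -0.01. Among 22 chemokines and cytokines it was -0.67, and -4.10 without replicate 1. Among 13 receptors for nerve signals it was -0.05, and -5.98 without replicate 2. The median of all genes was -0.54 without replicate 1 and -0.81 without replicate 2.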

How the data were processed

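PolyA RNA of sorted cells was amplified by Smart-seq2. The deposited table gives, for each gene symbol and library, a raw read count that the authors made with Trim Galore 0.4.1, TopHat2 2.1.0 (mm10) and featureCounts, per the labels and the paper. Whether counting used strand is not given in the sources used here, so antisense and overlapping genes are uncertain, as are near-identical copies such as globins. Of 16 library columns, 2 matched no sample and were not analysed here; by the series' design, 1 is a further normal Nes-GFP high library and the other an AML high one. Reads had no molecular identifiers, and p-values measure the spread between libraries. Same-group libraries differed beyond sampling noise (a chi-square of 89.7 to 388 for each degree of freedom). Low replicates 1 and 2, 3 and 4, and 5 and 6 were the closest pairs, at 89.7, 119 and 114, and other low pairs were at 219 or more. The fits treated the low libraries as independent, and the source of this pairing was not tested.

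Genes needed at least 10 counts in 2 of the 8 normal libraries. edgeR 4.0.16 (TMM, quasi-likelihood F test) was fitted to all 14 libraries in 4 groups, which share 1 estimate of the spread, and the normal high minus normal low contrast and its interaction with AML were tested with Benjamini-Hochberg adjustment over 16573 genes. It was tested on simulated data. DESeq2 1.42.0 and limma 3.58.1 (voom with quality weights), other scalings and filters, a replicate block and leaving out each library were alternatives. CPM used library totals. A gene with no count in both high libraries was set at 3 counts per library for a bound on its fold. Lengths came from GENCODE release M21 (GRCm38) by symbol, promoter windows from RefSeq. Genes named were the cell type markers, the 12 genes of smallest p in each direction, with non-overlapping libraries, at least 10 CPM and a unique symbol other than a Gm or Rik name, and, per list, 4 by p and 2 by level; Chad, Dlx5, Ifi44, Tnfrsf11b and other list members named for not overlapping were chosen after their values were seen. The gene lists and tests were chosen with earlier results of these data known. Some list members are not reported here by name.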

Additional observations from a re-analysis of the deposited data

Results flagged for a closer look

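Among 89 values examined in the 6 normal low libraries, 6 had 1 library far from the others, and chance gives about 1 in 20. The highest library was at 4.09 CPM for Alms1, 156 CPM for Clp1, 67.9 CPM for Lfng, 33.7 CPM for Itga2b and 9.89 CPM for Kcnj8, and the monocyte and macrophage list reached a sum of 4247 CPM in low replicate 3. Itga2b was below all low libraries in both normal high libraries and above all low libraries in both AML high ones. Its interaction was -13.08 on the log2 scale (adjusted p = 0.284 in edgeR), a value that depends on the prior count because neither normal high library had a count.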

How the results depend on the processing

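edgeR called 0 genes higher and 0 lower, and voom, the other scalings and filters, the fit to the 8 normal libraries and the replicate block did so too, whereas DESeq2 called 74 higher and 1639 lower. Leaving out 1 library gave 0 to 4 genes higher and 0 to 251 lower. All of these calls came without high replicate 2, which leaves replicate 1 alone in its group and assumes that it varies like the other groups. The interaction counted 762 genes in DESeq2, 0 under the replicate block and with DESeq2 size factors, and 0 to 206 with 1 high library left out (1 without normal high replicate 1, 206 without replicate 2). Non-overlapping higher genes were 614 after TMM and 705 after DESeq2 size factors. At an unadjusted p under 0.05, the 309 higher genes became 184 with library totals, 525 with no filter, 153 under the replicate block, 567 without high replicate 1 and 161 without replicate 2. The 1647 lower genes became 2946 in DESeq2, 624 in voom, 1065 at a mean of at least 10 CPM and 2540 without replicate 2. The cause was not tested. For the genes with a fold change in the text, 0 of 733 alternative values changed direction, and 37 values in DESeq2 passed the threshold. The other values that passed came from the fit without high replicate 2, which leaves replicate 1 alone in its group. Most of the genes with a fold change in the text were chosen in these same data by a small p or by libraries that did not overlap. Their directions could therefore hardly change. Under the replicate block, the log2 fold changes of Nes, Abcc9 and Ifitm5 were 2.68, 1.90 and 1.26. Deviations from the group means in high and low libraries of the same replicate number had correlations of -0.15 and 0.19. With 2 high libraries the deviations of 1 mirror those of the other. These values therefore cannot tell whether replicate numbers pair the libraries. The high libraries held 8213690 and 8645274 counts, and having 2 of them limits the precision. The part of their depth in this was not tested.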
